A study of Mus musculus with 12 samples.

Results

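The genes described here are *Cd14* and 9 Toll-like receptors of the mouse, *Tlr1*, *Tlr2*, *Tlr3*, *Tlr4*, *Tlr6*, *Tlr7*, *Tlr8*, *Tlr9* and *Tlr13*. They were taken by their symbols as 10 of the 54833 genes in the deposited table, and each symbol had 1 row. The study asked how age changes the transcriptional response of the brain to intracerebral hemorrhage (ICH). RNA was sequenced from perihematomal tissue of the ipsilateral caudate putamen, with 3 samples in each of 4 groups, and each sample pooled 2 to 3 mice. The young sham and young ICH groups were 8 to 10 weeks old, and the aged sham and aged ICH groups were 20 to 22 months old. All mice were wild-type males, and the tissue was taken 24 h after surgery. ICH was induced with type IV collagenase, which digests the basement membrane of blood vessels and lets blood enter the tissue. Sham mice had the same surgery with an injection of saline, so that the ICH groups differ from them in both the enzyme and the blood.

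Toll-like receptors are innate immune receptors that bind molecules of microbes and of damaged cells. TLR1, TLR2, TLR4 and TLR6 sit in the plasma membrane, where TLR2 pairs with TLR1 or TLR6 to bind lipoproteins and TLR4 binds lipopolysaccharide together with MD-2, whereas TLR3, TLR7, TLR8, TLR9 and TLR13 sense nucleic acids in endosomes. CD14 is a coreceptor that hands ligands to TLR4 and TLR2. In the brain these receptors are known mainly from microglia and macrophages, and TLR3 also from astrocytes and neurons.

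On the mouse build GRCm38 (GENCODE vM21), all 10 genes are annotated as protein coding. *Tlr1* (chr5:64924679-64933563) and *Tlr6* (chr5:64952031-64960097) are neighbors on the minus strand of chromosome 5, and *Tlr7* (chrX:167304929-167330558) and *Tlr8* (chrX:167242696-167264329) are neighbors on the minus strand of chromosome X. *Tlr13* (chrX:106143204-106160493) lies on the plus strand of the same chromosome. *Tlr2* (chr3:83836272-83841767) and *Tlr3* (chr8:45395665-45411080) are on the minus strand, *Tlr4* (chr4:66827584-66930284) and *Tlr9* (chr9:106222598-106226883) are on the plus strand. *Cd14* is listed by its identifier, ENSMUSG00000051439. *Tlr1* and *Tlr6* share near-identical exonic sequence, with 7.89% of the 100-base stretches of *Tlr1* and 7.09% of those of *Tlr6* found in the other gene, so their values are uncertain to that extent. The exons of *Tlr3* overlap those of *Gm45542* on the opposite strand over 381 bases, and since no strand setting is given, reads from that stretch cannot be told apart.

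RefSeq promoter windows, from 250 bases before to 50 bases after a start site, were found for 7 of the 10 genes. Of these, the stretch before the annotated start is shown for *Tlr2*, a plasma membrane receptor, for *Tlr13*, the receptor with the smallest standard error after ICH, and for *Tlr9*, the receptor with the smallest change, each written 5′ to 3′ on the strand of its gene on GRCm38.p6. Capitals mark the letters GGGNNTTCC in *Tlr2* (chr3:83841768-83841858, minus strand), a form of the NF-κB motif that is read there on both strands in overlapping positions. They mark GAGGAAG, a form of the PU.1 motif, in *Tlr13* (chrX:106143025-106143203, plus strand), and GAGGAAG and the AP-1 motif TGANTCA in *Tlr9* (chr9:106222348-106222597, plus strand).
Tlr2: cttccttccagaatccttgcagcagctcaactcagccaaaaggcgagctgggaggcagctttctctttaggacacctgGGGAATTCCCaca
Tlr13: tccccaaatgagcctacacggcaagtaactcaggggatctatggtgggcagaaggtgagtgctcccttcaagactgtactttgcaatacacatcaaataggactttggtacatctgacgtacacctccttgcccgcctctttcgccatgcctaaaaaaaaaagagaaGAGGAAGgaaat
Tlr9: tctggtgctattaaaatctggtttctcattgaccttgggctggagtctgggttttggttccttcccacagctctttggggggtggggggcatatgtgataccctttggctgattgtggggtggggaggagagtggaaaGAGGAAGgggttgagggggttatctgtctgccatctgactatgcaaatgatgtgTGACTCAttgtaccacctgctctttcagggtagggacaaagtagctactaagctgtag
Both strands of whole windows were searched, and the motifs were chosen after the windows had been seen. The NF-κB letters were in the window of 1 of the 7 genes, *Tlr2*, and in 5.82% of all 32851 windows. The PU.1 letters were in windows of 3 of the 7 genes, *Tlr1*, *Tlr9* and *Tlr13*, and in 13.6% of all windows. The AP-1 letters were found in *Tlr9* alone among them and in 7.81% of all windows, and the letters GAAANNGAA, a form of the interferon-stimulated response element, in *Tlr6* and *Tlr8* and in 8.56% of all windows. A match is a run of letters and not a measured binding site.

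The libraries held 28410896 to 37785160 counts on genes. Levels are given as CPM (counts scaled to library size, after TMM normalization) within a gene and as FPKM (fragments scaled to transcript length and library size) between genes. The 8 striatal neuron markers, among them *Drd1*, *Drd2* and *Ppp1r1b*, were present in every library. Their summed level was 1575 ± 503 CPM (SD, n = 3) in young sham, 873 ± 482 in young ICH, 1547 ± 455 in aged sham and 782 ± 644 in aged ICH samples. All 8 had a negative log2FC (log2 fold change) after ICH at both ages, with a median of −0.95 in young and −1.11 in aged mice, but the ranges of the sum overlapped. The adjusted *P* of these markers lay between 0.295 and 0.515 in young and between 0.208 and 0.443 in aged mice (edgeR), none under 0.05. The 6 choroid plexus markers differed widely, from 9.72 to 4071 CPM in the young ICH group, 39.7 to 1974 CPM in the aged ICH group and 53.2 to 488 CPM in the sham groups, and the highest library was young ICH replicate 3. A gene was called where edgeR's quasi-likelihood test gave a Benjamini-Hochberg adjusted *P* under 0.05 over the 21495 genes tested, and log2FC comes from that fit, given ± its standard error (SE). All 10 genes passed the filter on low counts, but *Tlr8* passed it through its counts in the ICH groups, with fewer than 3 sham samples at the level required, so its difference is partly built into its being tested. In bulk tissue, fewer cells of a type and less RNA per cell cannot be told apart.

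In young mice, 8 of the 10 genes rose after ICH, and 7 of 9 without *Tlr8*, against 9.89% of all genes tested. *Cd14* and *Tlr8* showed the highest fold changes, *Tlr2*, *Tlr4*, *Tlr7*, *Tlr13* and *Tlr1* were 2.21-fold to 2.49-fold higher, and *Tlr6* was 1.79-fold higher. *Tlr3* and *Tlr9* did not pass the test. In aged mice, 6 of the 10 genes rose, and 5 of 9 without *Tlr8*, against 7.00% of all genes. These were *Cd14*, *Tlr8*, *Tlr4*, *Tlr1*, *Tlr7* and *Tlr13*, and *Tlr2*, *Tlr6*, *Tlr3* and *Tlr9* did not pass. The median log2FC of the 10 genes was 1.19 in young and 0.97 in aged mice, beside 0.02 and 0.00 over all genes. The counts depended on single libraries, and 5 genes were called in young mice on leaving out replicate 1 or replicate 2 of the sham group or replicate 3 of the ICH group. In aged mice 3 genes were called without aged ICH replicate 1.

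**Figure D1:**
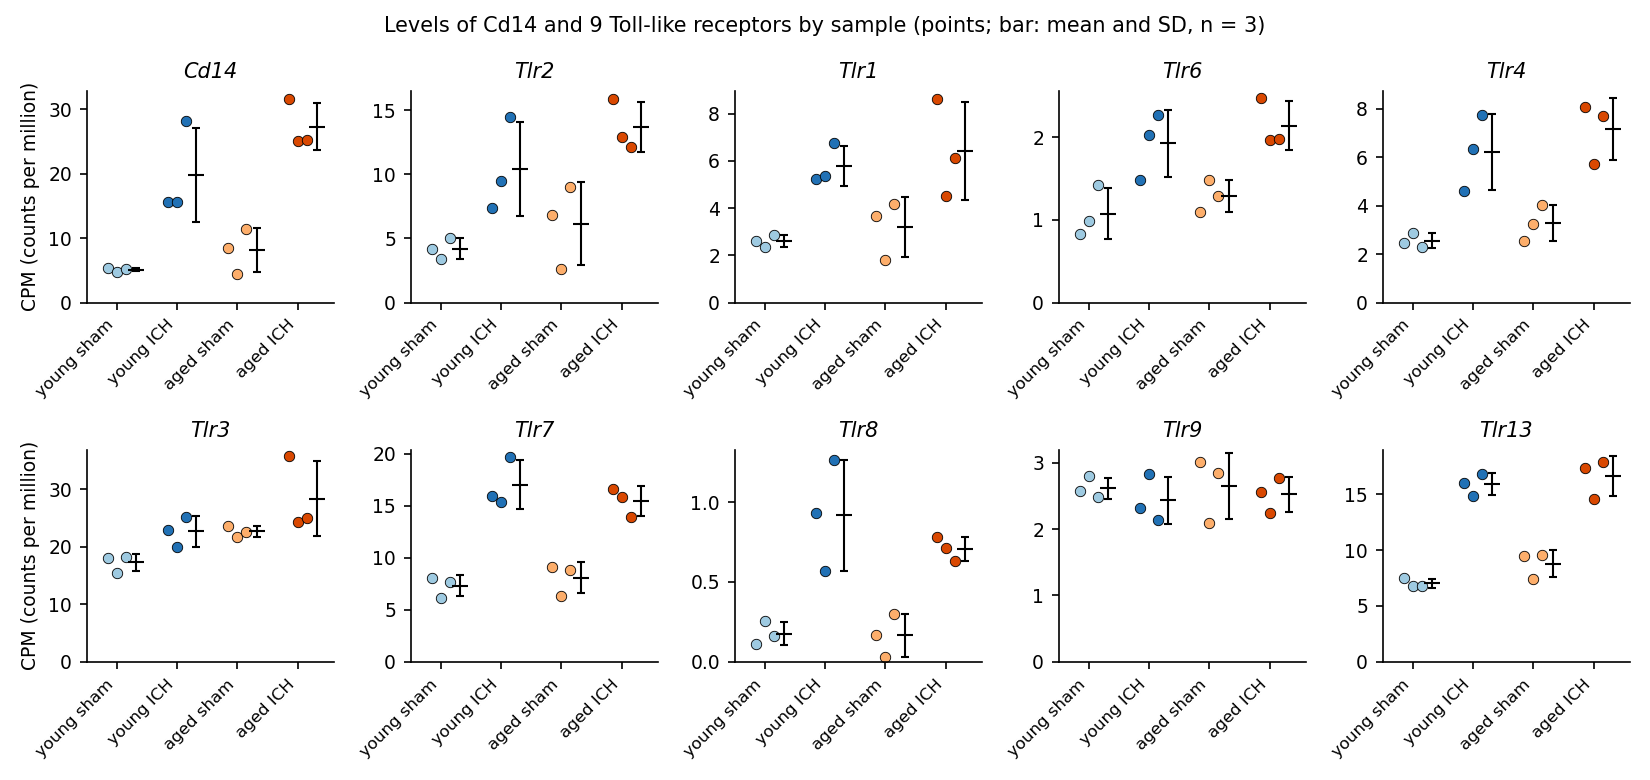
Level in CPM (y axis, linear, from 0, its own scale in each panel) of *Cd14* and the 9 Toll-like receptors in the 4 groups (x axis). Points are the 3 samples of a group and the bar is their mean and SD. In all panels but *Tlr9*, each ICH sample lies above each sham sample of the same age. *Tlr9* stays between 2.09 and 3.01 CPM in all 12 samples.

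*Cd14* encodes the coreceptor that takes up lipopolysaccharide. It was measured at 5.31, 4.82 and 5.21 CPM in the young sham samples and at 15.6, 15.6 and 28.1 CPM in the young ICH samples. In aged mice it was at 8.51, 4.52 and 11.3 CPM after sham surgery and at 31.5, 25.1 and 25.2 CPM after ICH. The ICH samples lay above the sham samples at both ages with no overlap, and young ICH replicate 3 was the highest of the young samples. The log2FC of *Cd14* was 1.95 ± 0.30 in young mice (edgeR, adjusted *P* = 0.00253), a 3.86-fold difference, and 1.74 ± 0.30 in aged mice (adjusted *P* = 0.00621), a 3.35-fold difference. Without young ICH replicate 3 the log2FC of *Cd14* in young mice was 1.61.

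*Tlr4*, the receptor that *Cd14* serves, was at 2.46, 2.89 and 2.31 CPM in young sham and at 4.61, 6.32 and 7.72 CPM in young ICH samples. In aged mice it was at 2.55, 3.24 and 4.04 CPM after sham surgery and at 8.08, 5.72 and 7.70 CPM after ICH. The groups did not overlap at either age, and the aged ICH replicate 2 was the lowest of its group. *Tlr4* rose by a log2FC of 1.28 ± 0.23 in young mice (edgeR, adjusted *P* = 0.0039) and 1.13 ± 0.22 in aged mice (adjusted *P* = 0.0102). In aged mice the adjusted *P* was 0.0513 without aged ICH replicate 1. *Cd14* stood at a higher level than *Tlr4* per length in every sample, and the ratio of their FPKM was 7.17 ± 1.11 (SD, n = 3) in young sham, 11.2 ± 2.17 in young ICH, 8.88 ± 3.55 in aged sham and 13.6 ± 1.96 in aged ICH samples. The ranges of this ratio were 5.90 to 7.98 and 8.72 to 12.9 in young sham and young ICH, which did not overlap, and 4.93 to 11.8 and 11.6 to 15.5 in aged sham and aged ICH, which did.

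*Tlr2*, the receptor of lipoproteins, was at 4.17, 3.39 and 5.02 CPM in young sham and at 7.37, 9.45 and 14.5 CPM in young ICH samples. In aged mice it was at 6.82, 2.63 and 9.01 CPM after sham surgery and at 15.9, 12.9 and 12.2 CPM after ICH. No ICH sample was as low as a sham sample of its age, but the aged sham samples were spread widely, with replicate 2 at the bottom and replicate 3 at the top. The log2FC was 1.31 ± 0.37 in young mice (edgeR, adjusted *P* = 0.030) and 1.15 ± 0.36 in aged mice (adjusted *P* = 0.0585), which missed the threshold. In young mice the call was lost without young sham replicate 1, 2 or 3 or young ICH replicate 3, with adjusted *P* values of 0.0724, 0.114, 0.0536 and 0.109. In aged mice *Tlr2* was called without aged sham replicate 3 (adjusted *P* = 0.0332), without young ICH replicate 3 (0.0419), by DESeq2 (0.00973), with no filter on low counts (0.0221) and in the fit with a replicate block (0.0343).

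*Tlr1* and *Tlr6* encode the partners of TLR2. *Tlr1* was at 2.63, 2.35 and 2.87 CPM in young sham, 5.22, 5.36 and 6.78 CPM in young ICH, 3.67, 1.79 and 4.19 CPM in aged sham and 8.64, 4.54 and 6.13 CPM in aged ICH samples. *Tlr6* was at 0.829, 0.983 and 1.42 CPM in young sham, 1.48, 2.03 and 2.27 CPM in young ICH, 1.09, 1.48 and 1.29 CPM in aged sham and 2.48, 1.96 and 1.98 CPM in aged ICH samples. The groups of both genes were separate at each age, though by little where aged sham replicate 3 met aged ICH replicate 2 for *Tlr1*, and where young sham replicate 3 met young ICH replicate 1 for *Tlr6*. *Tlr1* rose by a log2FC of 1.15 ± 0.30 in young (edgeR, adjusted *P* = 0.0213) and 1.0 ± 0.29 in aged mice (adjusted *P* = 0.0449). *Tlr6* rose by 0.84 ± 0.24 in young mice (adjusted *P* = 0.0334) and stood at 0.73 ± 0.24 in aged mice (adjusted *P* = 0.065).

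The calls of these partners were among the least stable. *Tlr1* was called in 14 of 17 alternatives in young and in 7 of 17 in aged mice. In young mice its call was lost without young sham replicate 1 or 2 or young ICH replicate 3, with adjusted *P* values up to 0.0833, and in aged mice it was lost on leaving out any of 9 libraries, which were all but young ICH replicate 3, aged sham replicate 3 and aged ICH replicate 2, with adjusted *P* values from 0.0517 to 0.196. *Tlr6* was called in 12 of 17 alternatives in young and in 0 of 17 in aged mice, where its adjusted *P* ran from 0.0517 to 0.225. In aged mice it did pass the criterion of the study, which uses the unadjusted *P* and was applied here to the edgeR values. In young mice the call of *Tlr6* was lost without young sham replicate 1 or 2 or young ICH replicate 2 or 3, with adjusted *P* values up to 0.114.

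Among the endosomal receptors, *Tlr7*, a sensor of single-stranded RNA, was at 8.10, 6.15 and 7.72 CPM in young sham and at 15.9, 15.4 and 19.7 CPM in young ICH samples. In aged mice it was at 9.10, 6.37 and 8.80 CPM after sham surgery and at 16.6, 15.9 and 13.9 CPM after ICH. The lowest ICH sample lay well above the highest sham sample at both ages. *Tlr7* rose by a log2FC of 1.21 ± 0.16 in young (edgeR, adjusted *P* = 0.00147) and 0.93 ± 0.16 in aged mice (adjusted *P* = 0.00617).

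*Tlr13*, which recognizes bacterial ribosomal RNA in mice, was at 7.49, 6.82 and 6.76 CPM in young sham and at 16, 14.9 and 16.8 CPM in young ICH samples. In aged mice it was at 9.43, 7.38 and 9.52 CPM after sham surgery and at 17.3, 14.6 and 17.9 CPM after ICH. All ICH samples of *Tlr13* lay above all sham samples of either age. The log2FC was 1.18 ± 0.12 in young (edgeR, adjusted *P* = 0.000684) and 0.92 ± 0.12 in aged mice (adjusted *P* = 0.00317), the smallest adjusted *P* of the 10 genes at each age. *Tlr7*, *Tlr13* and *Cd14* were called in 17 of 17 alternatives at both ages.

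*Tlr8*, a neighbor and relative of *Tlr7*, was the gene with the fewest counts. It had 4, 8 and 5 counts in young sham, 32, 17 and 40 in young ICH, 5, 1 and 10 in aged sham and 28, 21 and 20 in aged ICH samples. These are levels of 0.111 to 0.254 CPM in young sham, 0.566 to 1.26 in young ICH, 0.0337 to 0.299 in aged sham and 0.628 to 0.781 in aged ICH samples, with no overlap between sham and ICH. The log2FC of *Tlr8* was 2.37 ± 0.50 in young mice (edgeR, adjusted *P* = 0.00808), with a 95% interval from 1.29 to 3.46, and 2.03 ± 0.51 in aged mice (adjusted *P* = 0.0247), with an interval from 0.92 to 3.15. In aged mice its adjusted *P* was 0.0820 and 0.0681 without replicate 1 and replicate 2 of the sham group, and 0.0899 and 0.0574 without replicate 1 and replicate 3 of the ICH group.

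*Tlr3*, a sensor of double-stranded RNA, was at 18.1, 15.5 and 18.2 CPM in young sham and at 22.9, 19.9 and 25.2 CPM in young ICH samples. In aged mice it was at 23.7, 21.7 and 22.6 CPM after sham surgery and at 35.8, 24.3 and 25.0 CPM after ICH. The ICH samples of *Tlr3* were again above the sham samples of their age, but by a narrow margin. Its log2FC was 0.39 ± 0.14 in young (edgeR, adjusted *P* = 0.0779) and 0.32 ± 0.14 in aged mice (adjusted *P* = 0.156), neither past the threshold. In young mice it was called without aged ICH replicate 1, a library of neither group (adjusted *P* = 0.0226), and in the fit with a replicate block (adjusted *P* = 0.0491).

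*Tlr9*, a sensor of unmethylated CpG DNA, was at 2.57, 2.79 and 2.47 CPM in young sham, 2.32, 2.83 and 2.14 CPM in young ICH, 3.01, 2.09 and 2.84 CPM in aged sham and 2.56, 2.23 and 2.77 CPM in aged ICH samples. The 4 groups overlapped. The log2FC of *Tlr9* was −0.10 ± 0.18 in young (edgeR, adjusted *P* = 0.722) and −0.07 ± 0.18 in aged mice (adjusted *P* = 0.832), with 95% intervals from −0.49 to 0.28 and from −0.46 to 0.32.

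The 3 other Toll-like receptors of the mouse were near the lower limit of these libraries. *Tlr11* had 0 to 5 counts per library and was not tested. *Tlr5* had 6 to 29 counts, and *Tlr12* had 15 to 49 counts. Neither was called after ICH at either age, and the log2FC of *Tlr5*, the flagellin receptor, was 0.95 ± 0.44 in young mice (edgeR, adjusted *P* = 0.158) and 0.58 ± 0.42 in aged mice (adjusted *P* = 0.405).

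For 9 of the 10 genes every ICH sample lay above every sham sample of the same age, in young and in aged mice alike, and *Tlr9* was the exception in both. Without *Tlr8* this held for 8 of 9 genes at each age, and over all genes tested for 18.5% in young and 17.8% in aged mice. The criterion of the study, a fold change above 1.5 or below 0.67 with an unadjusted *P* under 0.05, was applied here to edgeR values. The study itself used DESeq2, so the counts are not its own calls. By this criterion, 8 of the 10 genes were higher in young ICH mice and 8 in aged ICH mice, against 8.66% and 7.24% of all genes. Without *Tlr8*, which passed the filter through its counts in the ICH groups, these were 7 of 9 at each age.

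**Figure D2:**
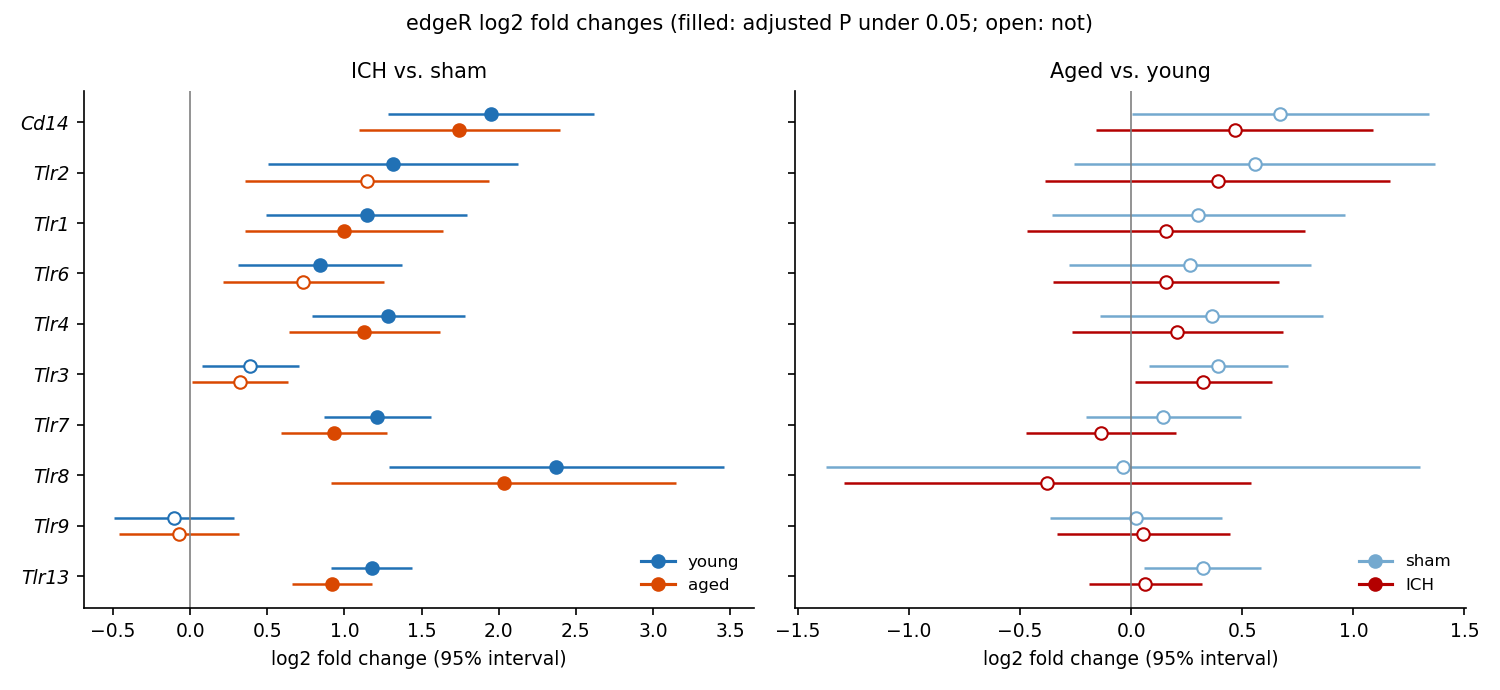
Log2 fold change (x axis) of each gene (y axis) with its 95% interval from edgeR. The left panel shows ICH vs. sham in young (blue) and aged (orange) mice and the right panel aged vs. young mice after sham surgery (light blue) and after ICH (dark red). Filled points have an adjusted *P* under 0.05. Filled points appear for 8 young and 6 aged responses to ICH and for no gene in the right panel.

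The comparison of aged sham with young sham mice addressed the effect of age alone. In this comparison, 0 of the 10 genes were called by edgeR and 0 by DESeq2, against 0.0884% of all genes called higher by edgeR. The share called lower is not given here. With so few calls among all genes, 0 of 10 does not set these genes apart. The share of all genes with an unadjusted *P* under 0.05 was not taken in any comparison. In edgeR, 3 of the 10 genes had such a *P*, *Cd14*, *Tlr3* and *Tlr13*, a number without a background to set it against. Their log2FC was 0.67 ± 0.31 for *Cd14* (edgeR, adjusted *P* = 0.404), 0.39 ± 0.14 for *Tlr3* (adjusted *P* = 0.31) and 0.32 ± 0.12 for *Tlr13* (adjusted *P* = 0.32). *Tlr3* was the gene in which every aged sham sample lay above every young sham sample, which held for 9.81% of all genes. *Cd14* met the criterion of the study, as did 2.82% of all genes toward higher values, but aged sham replicate 2, at 4.52 CPM, lay below all 3 young sham samples. The log2FC of *Cd14* was 0.96 without aged sham replicate 2 and 0.35 without aged sham replicate 3. The other log2FC lay between −0.04 for *Tlr8* and 0.56 for *Tlr2*. The interval of *Tlr2* reached from −0.26 to 1.37 and that of *Tlr8* from −1.37 to 1.30.

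Between aged ICH and young ICH mice, 0 of the 10 genes were called by edgeR and 0 by DESeq2, against 0.0372% of all genes called higher by edgeR. The share called lower is not given here either, and 0 of 10 again does not set these genes apart. *Tlr3* alone had an unadjusted *P* under 0.05, with a log2FC of 0.33 ± 0.14 (edgeR, adjusted *P* = 0.504), and its groups overlapped. *Cd14* had a log2FC of 0.47 ± 0.28 (adjusted *P* = 0.643), with a 95% interval from −0.16 to 1.09. *Tlr7* and *Tlr8* had negative values, −0.14 ± 0.15 and −0.38 ± 0.42.

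The response to ICH in aged mice minus that in young mice, tested as an interaction, passed the threshold for 0 of the 10 genes in edgeR and in DESeq2, and 0 had an unadjusted *P* under 0.05. Over all genes tested, 0% passed in edgeR. The difference on the log2 scale was −0.20 for *Cd14*, with an interval from −1.11 to 0.71, −0.28 for *Tlr7*, from −0.77 to 0.21, and −0.26 for *Tlr13*, from −0.62 to 0.11. For *Tlr2* it was −0.17, from −1.29 to 0.95, and for *Tlr4* −0.16, from −0.84 to 0.53. A response of *Tlr2* lower or higher by over 1.5-fold in aged mice therefore lies within its interval. The 4 comparisons share their samples, so that their values are not independent of each other.

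Per length, *Cd14* and *Tlr3* stood at the top in sham mice and *Cd14* alone after ICH. In the young sham group, *Tlr3* was at 3.18 ± 0.29 FPKM (SD, n = 3) and *Cd14* at 3.12 ± 0.17 FPKM, which overlapped, followed by *Tlr7* at 1.72, *Tlr13* at 1.56 and *Tlr2* at 1.33 FPKM, each overlapping with the next. *Tlr1* at 0.749 and *Tlr9* at 0.719 FPKM overlapped with each other and were apart from *Tlr2* above and *Tlr4* below, and *Tlr4* at 0.440, *Tlr6* at 0.277 and *Tlr8* at 0.0471 FPKM were separate. In the young ICH group, *Cd14* reached 12.8 ± 4.90 FPKM, with its lowest sample above the highest of *Tlr3*. *Tlr3* at 4.44, *Tlr7* at 4.25, *Tlr13* at 3.76 and *Tlr2* at 3.54 FPKM overlapped from each to the next, while *Tlr4* at 1.14 FPKM was now above *Tlr9* at 0.711 FPKM.

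In the aged sham group, *Cd14* at 5.11 ± 2.20 FPKM and *Tlr3* at 4.29 ± 0.18 FPKM overlapped, and *Tlr2*, *Tlr13* and *Tlr7* lay together at 2.02, 2.01 and 1.96 FPKM. In the aged ICH group, *Cd14* was at 18.0 ± 2.41 FPKM and apart from *Tlr3* at 5.64 ± 1.28 FPKM, and *Tlr3*, *Tlr2* at 4.69, *Tlr13* at 3.99 and *Tlr7* at 3.92 FPKM overlapped from each to the next. *Tlr8* was the lowest of the 10 genes in every group.

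The summed level of the 9 receptors was 10.0 ± 0.81 FPKM (SD, n = 3) in young sham, 20.4 ± 3.28 in young ICH, 13 ± 2.41 in aged sham and 23.1 ± 3.23 in aged ICH samples. The endosomal receptors made up 72.1% ± 1.96 of it in young sham, 66.2% ± 4.55 in young ICH, 70.7% ± 6.37 in aged sham and 62.9% ± 1.24 in aged ICH samples. The range of this share overlapped between young sham and young ICH samples and did not between aged sham, from 64.4% to 77.1%, and aged ICH samples, from 61.5% to 63.9%. The share of *Tlr3* was 31.7% ± 0.49 in young sham and 21.9% ± 2.0 in young ICH samples, and 33.8% ± 5.53 in aged sham and 24.2% ± 2.07 in aged ICH samples, with no overlap between sham and ICH at either age. The mean FPKM of *Tlr3* itself was higher after ICH at each age. *Tlr9* had a mean share of 7.23% in young sham and 3.58% in young ICH samples, and of 5.81% in aged sham and 3.28% in aged ICH samples. The mean shares of the other endosomal receptors, *Tlr7*, *Tlr8* and *Tlr13*, were higher after ICH at both ages.

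**Figure D3:**
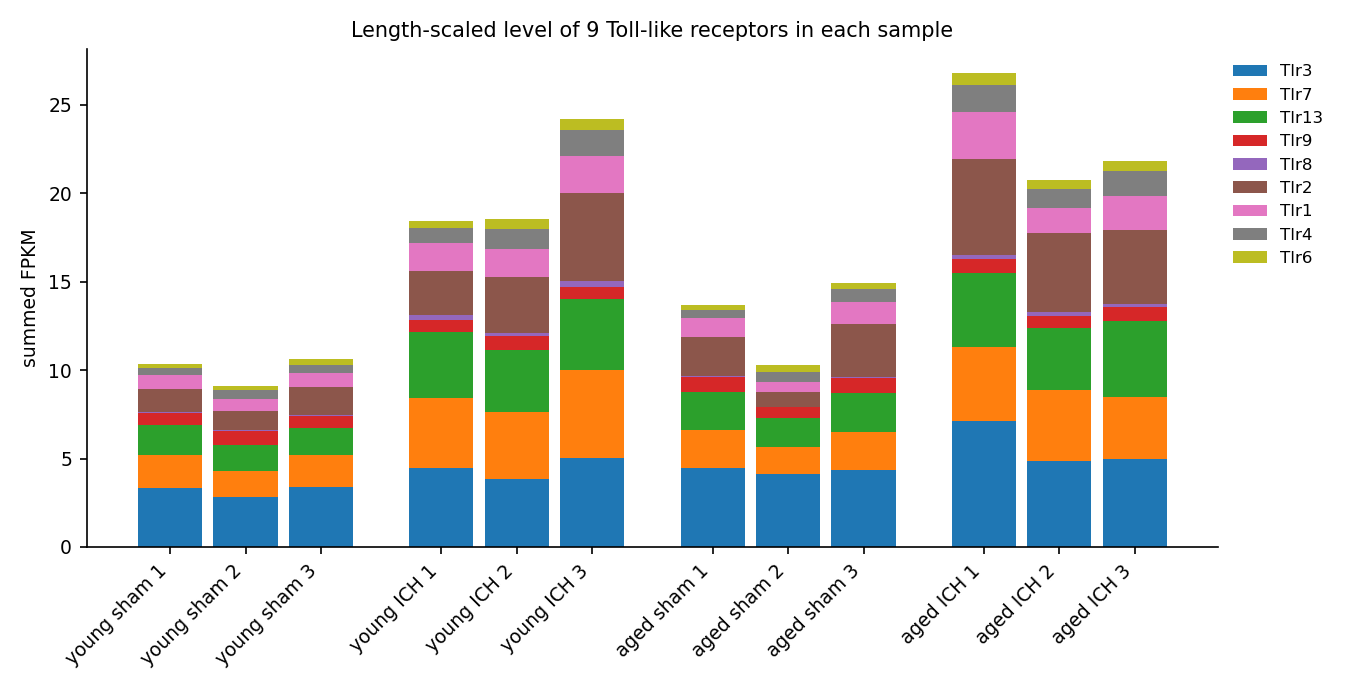
Summed FPKM (y axis, linear, from 0) of the 9 Toll-like receptors in each of the 12 samples (x axis), with one color per receptor and the endosomal receptors at the bottom of each bar. The young ICH bars average 20.4 FPKM and the young sham bars 10.0 FPKM, and *Tlr3* makes up 31.7% of the young sham and 21.9% of the young ICH bars on average.

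The cell types that carry these receptors were described by marker genes. The 10 homeostatic microglia markers summed to 413 to 505 CPM in young sham, 426 to 489 in young ICH, 449 to 477 in aged sham and 437 to 491 in aged ICH samples, so the sums overlapped in all groups. In this list, 2 of 10 markers fell at each age, against 9.23% of all genes in young and 6.15% in aged mice, *P2ry12* by 0.70 and *Siglech* by 0.80 on the log2 scale in young mice (edgeR, adjusted *P* = 0.00592 and 0.0159), and by 0.85 and 1.11 in aged mice (adjusted *P* = 0.00536 and 0.00727). The 10 monocyte and macrophage markers summed to 133 to 143 CPM in young sham and 299 to 382 in young ICH, and to 115 to 234 in aged sham and 325 to 413 in aged ICH samples. Of these markers 6 of 10 rose at each age, among them *Ccr2* and *Chil3*, against 9.89% of all genes in young and 7.00% in aged mice. The other 4 were not called. *Fn1* was the largest part of the sum in every sample, at 2365 to 4767 counts in sham and 5333 to 9076 counts in ICH samples. *Ly6c2* overlapped, with 14, 30 and 84 counts in young sham and 125, 33 and 75 in young ICH samples. In aged mice it had 73, 24 and 33 counts after sham surgery and 65, 47 and 60 after ICH.

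The 12 neutrophil markers summed to 30.6 to 39.4 CPM in young sham and 146 to 331 in young ICH, and to 24.6 to 67.9 in aged sham and 180 to 229 in aged ICH samples. In every ICH sample most of this sum was *Lcn2*, which reactive astrocytes also express, at 6.44 to 40.2 CPM in sham and 124 to 296 CPM in ICH samples. Without *Lcn2* the markers summed to 11.3 to 13.9 CPM in young sham, 22.1 to 40.1 in young ICH, 16.3 to 27.7 in aged sham and 40.7 to 57.1 in aged ICH samples. Of the 10 neutrophil markers tested, 8 rose in young and 7 in aged mice, though *Ltf*, *Mmp8*, *Ngp* and *Retnlg* passed the filter through their counts in the ICH groups. Without these, 6 of 6 rose at each age, against 9.89% of all genes in young and 7.00% in aged mice. *Ly6g*, which defines neutrophils, had 0 to 4 counts per library and was not tested. The 7 border macrophage markers summed to 10.0 to 21.6 CPM in young sham, 36.1 to 43.4 in young ICH, 14.7 to 21.5 in aged sham and 33.7 to 41.2 in aged ICH samples. Of these, 4 of 7 rose in young and 3 in aged mice, against the same shares of all genes. *Cd163* went the other way, with a log2FC of −0.29 in young and −0.75 in aged mice, and was not called. *F13a1* was the largest part of this sum in every ICH sample, at 407 to 715 counts, beside 58 to 298 counts in sham samples. The summed level of the 10 genes described here ran from 46.0 to 52.2 CPM in young sham, 92.2 to 124 in young ICH, 51.3 to 74 in aged sham and 108 to 140 in aged ICH samples. Young ICH replicate 3 was the highest and aged sham replicate 2 the lowest of its group in this sum, in the monocyte and macrophage sum and in the neutrophil sum, the latter with *Lcn2* included. Aged ICH replicate 1 had the highest sum of the 10 genes, 140 CPM, and the lowest sum of the striatal neuron markers, 249 CPM. The part of these cell types in the change of the receptors was not tested.

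Among the cell types known for *Tlr7* and *Tlr9*, B cell markers were near 0, with a summed level of 0.539 to 1.46 CPM and 1 of 6 markers tested. Over all genes tested, 9.89% were called higher and 9.23% lower after ICH in young mice, and 7.00% higher and 6.15% lower in aged mice. A single call in the short lists that follow is not read as a change of the list. Of 5 plasmacytoid dendritic cell markers tested, 0 rose in young and 1 in aged mice, *Bst2*, which interferons also induce. Nearly all of the sum of the 6 markers was *Tcf4*, which is broadly expressed in brain, at 419 to 578 CPM, and the other 5 summed to 9.61 to 22.6 CPM in sham and 16.1 to 43.9 CPM in ICH samples. Of 6 astrocyte markers, which bear on *Tlr3*, 2 rose in young mice, and 1 rose and 1 fell in aged mice, with summed levels from 4271 to 5457 CPM over all samples. Of 6 endothelial markers, 5 rose and 1 fell in young and 3 rose and 1 fell in aged mice, with sums of 242 to 306 CPM in sham and 311 to 380 CPM in ICH samples. In the young ICH group, replicates 1, 2 and 3 had 55.0, 9.72 and 4071 CPM of choroid plexus markers and 92.2, 92.3 and 124 CPM of the 10 genes, so that replicate 3 was the highest in both sums. In the aged ICH group the same sums were 1555, 1974 and 39.7 CPM and 140, 108 and 113 CPM. The part of the choroid plexus in these levels was not tested.

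**Figure D4:**
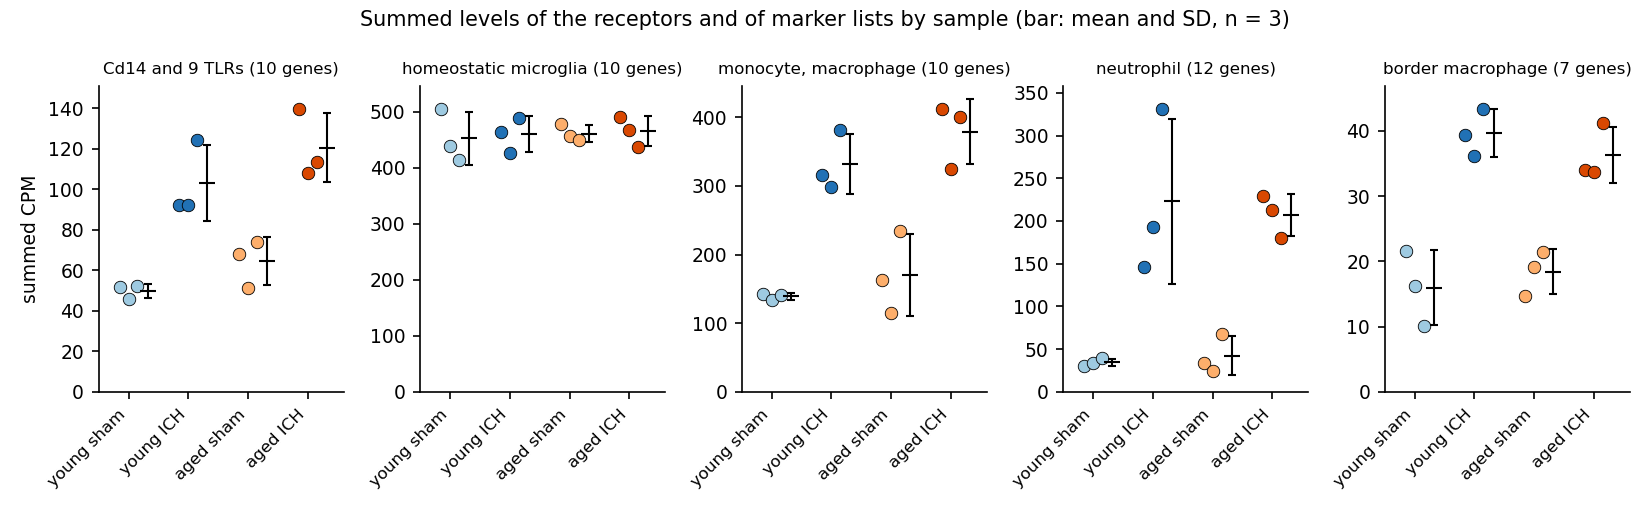
Summed CPM (y axis, linear, from 0, its own scale in each panel) of the 10 genes and of 4 marker lists in the 4 groups (x axis). Points are samples and the bar is the mean and SD (n = 3). The microglia sums overlap in all groups, while the other sums are higher in every ICH sample than in every sham sample of the same age.

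The rest of the pathway was followed in lists of genes by role, of which 85 genes were tested besides the 10. Of these, 33 rose and 1 fell in young mice after ICH, and 32 rose and 0 fell in aged mice, against 9.89% higher and 9.23% lower of all genes in young and 7.00% higher and 6.15% lower in aged mice. The aged count depended on single libraries and was 17, 17, 11 and 19 without aged sham replicate 1, aged sham replicate 2, aged ICH replicate 1 and aged ICH replicate 3. The median log2FC of these 85 genes was 0.51 in young and 0.45 in aged mice. Among them, *Il6* and *Cxcl2* passed the filter on low counts through the ICH groups. Without these, 31 of 83 genes rose in young and 30 of 83 in aged mice.

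Among 8 endogenous ligands, 4 rose at each age. The alarmins *S100a8* and *S100a9*, which form a ligand of TLR4 and are also on the neutrophil list, had log2FC of 2.61 ± 0.57 and 3.67 ± 0.68 in young mice (edgeR, adjusted *P* = 0.00953 and 0.00479) and 2.46 ± 0.50 and 2.30 ± 0.57 in aged mice (adjusted *P* = 0.0113 and 0.0233). The matrix proteins *Tnc* and *Dcn* had log2FC of 2.32 ± 0.37 and 1.49 ± 0.19 in young mice (adjusted *P* = 0.00264 and 0.00137) and 2.30 ± 0.37 and 0.84 ± 0.18 in aged mice (adjusted *P* = 0.00531 and 0.0143).

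Among 16 coreceptors, chaperones and proteases, 6 rose at each age. *Ly96*, which encodes MD-2, rose in young mice, with a log2FC of 0.89 ± 0.20 (edgeR, adjusted *P* = 0.0102), and was at 0.51 ± 0.19 in aged mice (adjusted *P* = 0.0979). *Unc93b1*, which carries the nucleic acid receptors to endosomes, was at 0.20 ± 0.11 and 0.25 ± 0.11 (adjusted *P* = 0.244 and 0.169). *Cd36*, a scavenger receptor that works with TLR2, rose by a log2FC of 1.58 ± 0.30 in young and 1.97 ± 0.31 in aged mice (adjusted *P* = 0.00552 and 0.00534). *Ctsl* and *Ctss*, proteases of the endosome, rose by 0.58 and 0.51 in young and 0.58 and 0.38 in aged mice.

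Of 6 adaptors tested, 2 rose in young and 1 in aged mice. *Myd88*, the adaptor of all these receptors but TLR3, rose by a log2FC of 1.12 ± 0.26 in young and 1.23 ± 0.26 in aged mice (edgeR, adjusted *P* = 0.0122 and 0.0123). *Ticam1*, which encodes the adaptor TRIF of TLR3 and TLR4, was at 0.34 ± 0.11 and 0.36 ± 0.11 (adjusted *P* = 0.0551 and 0.0539). *Tirap*, which bridges TLR2 and TLR4 to MyD88, rose in young mice by 0.94 ± 0.19 (adjusted *P* = 0.00689) and was at 0.58 ± 0.19 in aged mice (adjusted *P* = 0.0613).

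Of 22 kinases, ligases and transcription factors, 7 rose and 1 fell in young mice, and 6 rose in aged mice. *Irf5*, a transcription factor downstream of MyD88, rose by 0.89 ± 0.12 and 0.65 ± 0.12 on the log2 scale in young and aged mice (edgeR, adjusted *P* = 0.00167 and 0.00845), and *Irf3*, a factor downstream of TRIF, by 0.59 ± 0.09 and 0.45 ± 0.09 (adjusted *P* = 0.0021 and 0.00996). *Tab3*, a subunit of the TAK1 complex, fell in young mice. Of 15 inhibitors tested, 7 rose in young and 6 in aged mice, with *Atf3* at 2.64 ± 0.35 and 2.10 ± 0.33 (adjusted *P* = 0.00147 and 0.00505) and *Nfkbia*, which encodes the NF-κB inhibitor IκBα, at 0.95 ± 0.12 and 0.84 ± 0.12 (adjusted *P* = 0.00141 and 0.00454).

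Of 16 response genes tested, 7 rose in young and 9 in aged mice. Both counts include *Il6* and *Cxcl2*, which, like *Tlr8*, passed the filter on low counts through the ICH groups. They had 3 to 14 and 1 to 61 counts per sham library and 24 to 115 and 37 to 305 per ICH library. Without them, 5 of 14 response genes rose in young and 7 of 14 in aged mice, against 9.89% and 7.00% of all genes. *Il6* rose by a log2FC of 2.50 ± 0.49 in young and 2.97 ± 0.44 in aged mice (edgeR, adjusted *P* = 0.00599 and 0.00463), and *Cxcl2*, a neutrophil chemokine, by 4.01 ± 0.94 and 3.38 ± 0.80 (adjusted *P* = 0.0139 and 0.0201). *Cd86*, a costimulatory molecule, rose by 0.82 ± 0.12 and 0.74 ± 0.12 (adjusted *P* = 0.00191 and 0.00534). In the aged sham vs. young sham comparison 0 of the 85 genes were called by edgeR, with 20 at an unadjusted *P* under 0.05. DESeq2, run without the filter on low counts and so counted over 89 pathway genes, called 3. In the aged ICH vs. young ICH comparison 0 were called by either tool, with 14 at an unadjusted *P* under 0.05 in edgeR. In the interaction 0 were called by either tool, with 2 at that level. The share of all genes at an unadjusted *P* under 0.05 was not taken, so these numbers have no background.

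**Figure D5:**
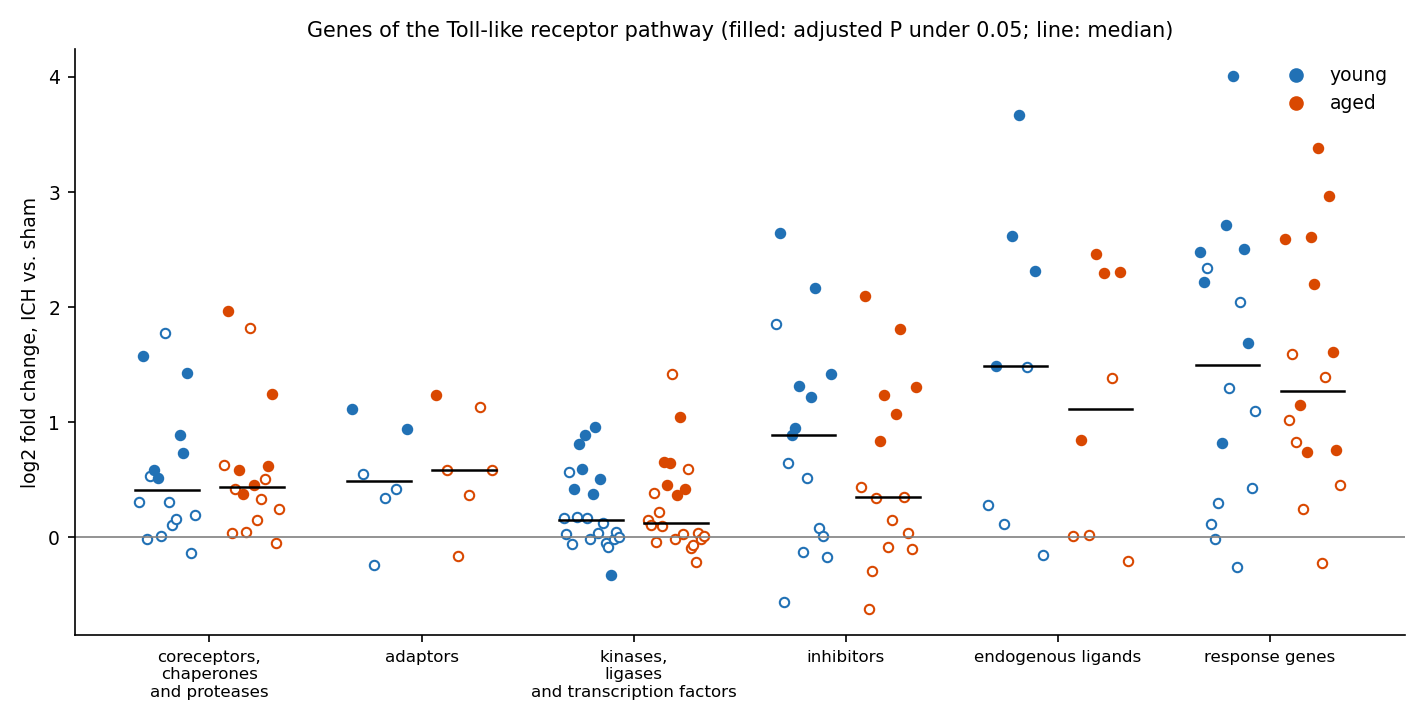
Log2 fold change, ICH vs. sham (y axis), of each tested gene in 6 lists of the Toll-like receptor pathway (x axis) in young (blue) and aged (orange) mice. Filled points have an adjusted *P* under 0.05 and lines are the medians of a list. In young mice these run from 0.15 for the kinases, ligases and transcription factors to 1.49 for the response genes. The response genes include *Il6* and *Cxcl2*, which passed the filter on low counts through the ICH groups.

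The genes most like each receptor over the 12 samples were found by the root mean square (RMS) difference of log2 CPM, each gene centered on its own mean, among 16824 genes. *B4galt1* was the closest to *Tlr7*, with an RMS difference of 0.0774, and *Tnfrsf1b*, a receptor of tumor necrosis factor, was the closest to *Tlr1*, at 0.134. *Cyba*, a subunit of the phagocyte NADPH oxidase, was the closest to *Tlr13*, at 0.104, and *Casp4*, an inflammatory caspase, the closest to *Tlr2*, at 0.154. The gene closest to *Cd14* was *Adamts1*, a secreted protease, at 0.186, and that closest to *Tlr4* was *Akap12*, at 0.174, which was also the third closest to *Tlr13*. For *Tlr3* it was *Lbh*, at 0.0931, for *Tlr6* *Map2k3os*, at 0.156, for *Tlr8* *S1pr3*, at 0.287, and for *Tlr9* *Tut7*, at 0.0867. *Spi1*, which encodes PU.1, was the third closest to *Tlr1*. The difference is smaller for genes with many counts or small changes, so it does not rank the receptors against each other.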

How the data were processed

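RNA-seq of 12 samples was used, 3 in each of 4 groups, which were assigned by the titles in the labels. The authors aligned reads to GRCm38.p6 (HISAT2), assigned them to genes (featureCounts) and deposited a table of raw, unnormalized counts beside FPKM. The deposited FPKM are scaled to transcript length and mapped fragments. The strand setting and the treatment of reads with several alignments are not given in the sources used here, so reads of overlapping or near-identical genes cannot be assigned with certainty. Value columns that matched no sample numbered 0. Columns of the authors' own comparisons were not used.

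Counts were tested with edgeR 4.0.16 (quasi-likelihood, limma 3.58.1, R 4.3.3), with TMM normalization, all 12 samples and 4 groups in one fit, after filterByExpr (minimum count 10) had left 21495 genes. *P* values were adjusted with the Benjamini-Hochberg method over these genes, and SE and 95% intervals come from the fit. The log2 CPM used to find the most alike genes were computed with a prior count of 2. The tests were two-sided and were tested on simulated data with known changes. Alternatives were DESeq2 1.42.0, RLE normalization, no filter, the 2 groups alone, a replicate block, the criterion of the study and each sample left out. The total counts per sample set the precision of genes with few counts such as *Tlr8*.

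The members and lists were chosen with earlier results of these data known, so no list is independent evidence. All 10 members were named in every comparison, and of each pathway list up to 4 genes with the smallest *P*, besides *Ly96*, *Unc93b1*, *Myd88* and *Ticam1*. Other genes named were marker genes, or were chosen after their values were seen. The adaptor *Tasl* was not matched in the table.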

Additional observations from a re-analysis of the deposited data

How the results depend on the processing

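Under 17 alternatives, *Cd14*, *Tlr7* and *Tlr13* stayed called after ICH at both ages, as did *Tlr4* and *Tlr8* in young mice. With each library left out in turn, 5 to 9 of the 10 genes were called in young mice and 3 to 7 in aged mice, and of the pathway genes 23 to 38 were called in young and 11 to 37 in aged mice. With the 2 groups alone, *Tlr6* in young mice (adjusted *P* = 0.0891) and *Tlr1* in aged mice (adjusted *P* = 0.0977) lost their calls, and this alternative was not run for the interaction. By the criterion of the study, 1 of the 10 genes and 13 of the 85 pathway genes passed between aged sham and young sham mice. All of these were higher in aged mice, against 2.82% of all genes. Between aged ICH and young ICH mice 5 pathway genes passed, and 2 in the interaction. The shares of all genes in these 2 comparisons are not given here, so their numbers have no background. Between the sham groups, 3 pathway genes passed with DESeq2 and 1 with no filter, both counted over the 89 pathway genes and not the 85 that passed the filter. With a library left out 0 to 2 passed, where the 2 came without aged sham replicate 2. The cause of these changes was not tested.

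Same-numbered samples did not deviate together, with 6 of 18 correlations over 0.1 and a range from −0.60 to 0.40, and 2 of 12 samples correlated best with their own number, so the numbers were not taken to pair samples. With the replicate block, 9 of the 10 genes were called in young mice and 7 in aged mice, and 35 pathway genes at each age.

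The sign of values near 0 depended on single libraries. With a library left out, the log2FC of *Tlr9* ran from −0.22 to 0.030 for aged ICH vs. aged sham, from −0.081 to 0.16 for aged sham vs. young sham and from −0.028 to 0.18 for aged ICH vs. young ICH. That of *Tlr8* ran from −0.78 to 0.42 for aged sham vs. young sham, and for aged ICH vs. young ICH that of *Tlr1* ran from −0.12 to 0.35 and that of *Tlr6* from −0.0036 to 0.29. The interaction ran from −0.43 to 0.092 for *Tlr1*, −0.53 to 0.22 for *Tlr2*, −0.33 to 0.031 for *Tlr4*, −0.35 to 0.056 for *Tlr6*, −0.27 to 0.033 for *Tlr3*, −0.80 to 0.40 for *Tlr8*, −0.11 to 0.16 for *Tlr9* and −0.49 to 0.14 for *Cd14*. *Tlr8*, at 1 to 40 counts per library, was limited by depth.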

Other observations

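Among the 85 pathway genes, 2 had an unadjusted *P* under 0.05 for the difference between the aged and the young response to ICH, and neither passed the adjustment over all genes. They were chosen after their values were seen, and the share of all genes at that unadjusted *P* was not taken. *Cd40*, a costimulatory receptor of antigen-presenting cells, was at 0.801, 0.508 and 1.06 CPM in young sham, 0.755, 0.666 and 0.914 CPM in young ICH, 0.629, 0.506 and 0.419 CPM in aged sham and 1.42, 1.02 and 1.01 CPM in aged ICH samples. The young groups overlapped, and every aged ICH sample lay above every aged sham sample, which held for 17.8% of all genes tested. The difference of the responses of *Cd40* was 1.17 ± 0.42 on the log2 scale (edgeR, adjusted *P* = 0.9999). *Dcn*, which encodes the matrix proteoglycan decorin, differed by −0.65 ± 0.26 (adjusted *P* = 0.9999). It was above sham in every ICH sample at both ages, which held for 18.5% of all genes in young and 17.8% in aged mice. *Irf7*, an interferon-induced transcription factor downstream of TLR7 and TLR9, had a log2FC of 1.32 ± 0.47 for aged ICH vs. young ICH mice (edgeR, adjusted *P* = 0.42). Its 3 aged ICH samples lay above the 3 young ICH samples, which held for 19 of the 85 pathway genes, *Irf7* among them. The share of all genes for which this held is not given here, so this number has no background.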
